A study of Arabidopsis thaliana with 16 samples.

Results

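The genes described here are 52 loci of Arabidopsis thaliana annotated as late embryogenesis abundant (LEA) proteins or dehydrins. They were chosen by locus identifier from the 37336 loci in the count tables and not by a limit on expression, though with earlier results of these data known. They were followed in seeds of the dog1-3 mutant and of WT (Col-0), collected 1 day after harvest and imbibed at 4 °C for 72 h on MS agar with 100 mM NaCl or without it (mock). dog1-3 (SALK_000867) is a T-DNA insertion line in DOG1, a gene for seed dormancy, and is the single mutant allele measured. The 4 groups, dog1-3 NaCl, dog1-3 mock, WT NaCl and WT mock, had 4 biological replicates each, which gave 16 libraries of whole seeds, so that fewer cells of a type and less RNA per cell cannot be told apart. The assay, 3'RNA-seq, reads transcripts next to their poly(A) tail, and the length of a gene therefore has little bearing on its count.

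LEA proteins are small, hydrophilic and mostly unstructured proteins that accumulate in the embryo late in seed maturation and are known for the protection of membranes and other proteins during drying. Dehydrins are the LEA family marked by lysine-rich segments, and some of them are induced by cold, drought or abscisic acid (ABA) in leaves. The Em proteins (family LEA_5) are the classic ABA-induced transcripts of the maturing embryo, LEA_4 is the largest family in this list, SMP stands for seed maturation protein, and M10 and M17 (here AtM) are transcripts of late seed maturation. Their mRNAs are stored in the dry seed and are lost as a seed proceeds to germination.

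Total counts ranged from 1416354 to 2416698 in dog1-3 NaCl, from 1751431 to 2751027 in dog1-3 mock, from 1725172 to 2086789 in WT NaCl and from 2479170 to 3635844 in WT mock. DOG1 itself was at 18.9 ± 3.04 CPM in dog1-3 NaCl, 15.6 ± 2.30 CPM in dog1-3 mock, 145 ± 23.9 CPM in WT NaCl and 80.5 ± 16.4 CPM in WT mock (CPM, the count relative to the TMM-scaled total of its library; SD, n = 4), so the mutant libraries kept a low level of reads on the gene. Markers of the mature seed were abundant in every library. Of 4 leaf markers, LHCB2.1, CAB1 and RBCS3B had at most 1, 13 and 36 counts summed over a group, whereas RBCS1A was well counted (4217 to 6009 counts a group), and 3 seed coat markers had at most 9. The RT reactions of NaCl and of mock seeds were pooled separately, so that pool and treatment cannot be told apart. Of the members, 37 passed the filter on low counts and were tested, and 15 did not pass. Changes were called at an adjusted p under 0.05 (edgeR's quasi-likelihood test, Benjamini-Hochberg over all 12697 genes tested) together with a change of more than 1.5-fold.

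The LEA and dehydrin transcripts made up a large part of the seed mRNA, and that part was largest in dog1-3 seeds on NaCl. They took 7.36% ± 0.333 of all counts in dog1-3 NaCl, 5.29% ± 0.267 in dog1-3 mock, 4.62% ± 0.553 in WT NaCl and 2.92% ± 0.278 in WT mock (SD, n = 4). Their summed CPM was 3.20-fold higher in dog1-3 NaCl than in WT mock. The lowest dog1-3 NaCl library, at 77974 CPM, lay above the highest library of each other group. Between dog1-3 mock, with 49892 to 57505 CPM, and WT NaCl, with 39198 to 52590.2 CPM, the libraries overlapped. Few genes carried this sum: RAB18, M10, M17 and EM6 held 47.7% of all member counts, and RAB18 alone was the 8th most abundant of all loci over the 16 libraries.

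**Figure D1:**
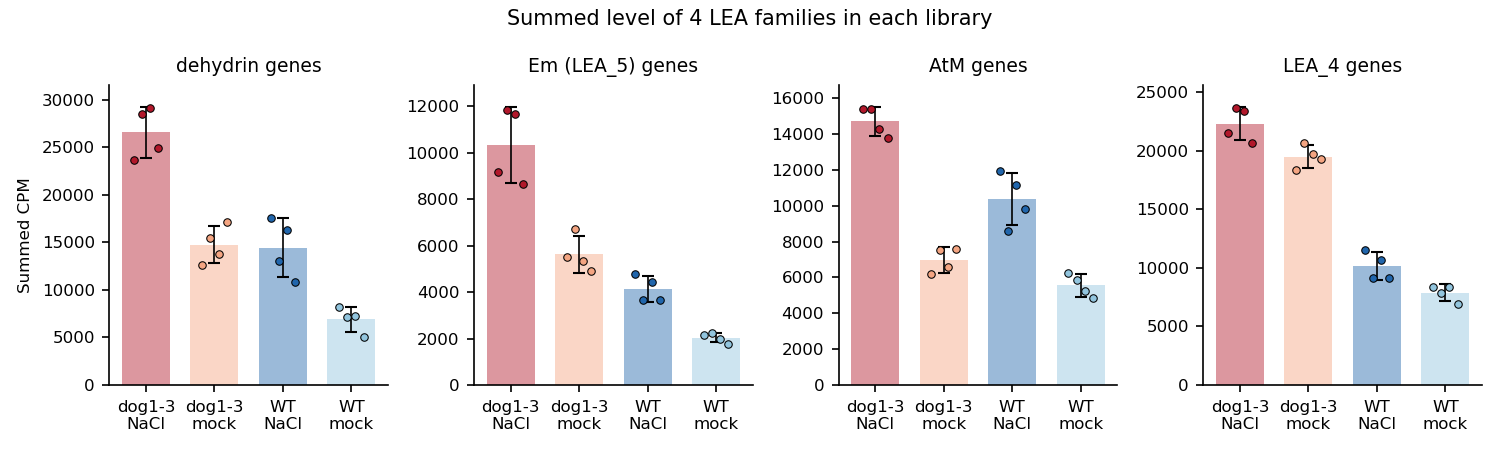
Summed CPM (vertical axis, from 0) of the dehydrin, Em, AtM and LEA_4 genes in dog1-3 NaCl, dog1-3 mock, WT NaCl and WT mock, with points for libraries, bars for means and error bars for the SD (n = 4). In dog1-3 mock the LEA_4 sum (18357 to 20675) lies above every WT NaCl library, the dehydrin sum overlaps with WT NaCl, and the AtM sum lies below it (6175 to 7572 CPM, against 8606 to 11907 CPM).

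The families did not share 1 profile. The LEA_4 sum was 19511 ± 959.7 CPM in dog1-3 mock and 7886 ± 709.8 CPM in WT mock, a ratio of 2.47, whereas NaCl over mock gave a ratio of 1.14 in dog1-3 and 1.29 in WT. For the dehydrins both ratios were of similar size, 2.13 for dog1-3 over WT in mock and 2.09 for NaCl over mock in WT. The AtM pair showed the opposite order to LEA_4, with a ratio of 1.25 for dog1-3 over WT in mock, where the libraries overlapped, and of 1.86 for NaCl over mock in WT and 2.11 in dog1-3. LEA_3 was the single family with a lower sum in dog1-3, at 256 ± 30.9 CPM in dog1-3 mock and 404 ± 45.2 CPM in WT mock (SD, n = 4). These sums are descriptions, were not tested and depend on the most abundant genes of each family. In dog1-3 mock RAB18 held 10199 of the 14752 CPM of the dehydrins. Of the AtM pair, M10 was called for genotype in both treatments and M17 in neither.

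The first comparison asked which members responded to salt. In WT, 19 of the 37 members tested were called higher on NaCl and 0 lower, where 9.46% of all genes tested were called higher and 7.07% lower. Among them were 6 of 7 dehydrins, both Em genes, both AtM genes, both PvLEA18 genes and 4 of 12 LEA_4 genes. The median log2 fold change (log2FC) of the members was 0.61, against -0.0019 for all genes tested. In dog1-3, 14 members were called higher and 0 lower, where 7.53% of all genes were called higher and 7.16% lower, and the members' median log2FC was 0.46. Libraries of NaCl and mock did not overlap for 21 members higher and 1 lower in WT (16.4% and 15.2% of all genes) and for 23 higher and 0 lower in dog1-3 (14.1% and 12.7% of all genes). At a test against the 1.5-fold limit itself (edgeR's glmTreat) 9 members were higher and 0 lower in WT, where 2.51% and 1.13% of all genes were, and 8 were higher and 0 lower in dog1-3, where 1.52% and 0.669% were. With the adjusted p alone, 28 members were higher and 1 lower in WT, where 18.9% and 16.5% of all genes were, and 26 were higher and 0 lower in dog1-3, where 15.3% and 13.5% were. Scaling by library size alone moved the median of all genes by -0.12 in WT and -0.19 in dog1-3 and left 13 and 10 members higher and 0 lower. Under that scaling 6.17% of all genes were called higher and 11.5% lower in WT, and 3.82% higher and 13.8% lower in dog1-3. The leaf marker RBCS1A, a Rubisco small subunit, was called higher on NaCl as well, with a log2FC of 0.79 (SE 0.08) in dog1-3 and 0.60 (SE 0.08) in WT. The leaf marker sum, nearly all of it RBCS1A, was 814 to 1000.1 CPM in dog1-3 NaCl, 476 to 559 CPM in dog1-3 mock, 555 to 632 CPM in WT NaCl and 361 to 448 CPM in WT mock, and its part in the members' changes was not tested.

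RAB18, an ABA-responsive dehydrin and the most abundant member, had 16751, 20970.2, 21949 and 18224 CPM in dog1-3 NaCl and 8252, 10603, 9461 and 12482 CPM in dog1-3 mock. In WT it had 13723, 9871, 12850.5 and 7648 CPM on NaCl, against 6048, 4849.8, 5045 and 3233 CPM in mock. In each genotype all NaCl libraries were above all mock libraries, and the log2FC was 0.93 (standard error (SE) 0.15, adjusted p = 5.69e-06) in dog1-3 and 1.20 (SE 0.15, adjusted p = 3.66e-08) in WT. RAB18 (chr5:26518277-26519447, minus strand, 2 exons) overlaps AT5G66410 on the opposite strand. The strand setting of the read counting is not given in the sources used here, so a share of its reads could come from that gene.

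The neighbouring dehydrin genes XERO1 and LTI30 followed RAB18 with less spread. XERO1 had 1826, 1959.9, 1804 and 1692 CPM in dog1-3 NaCl and 861, 876, 749 and 808 CPM in dog1-3 mock. Its WT libraries had 1020.0, 827, 881 and 831 CPM on NaCl, against 434, 446, 423 and 375 CPM in mock. The NaCl libraries again lay apart from mock, with a log2FC of 1.14 (SE 0.08) in dog1-3 and 1.09 (SE 0.08) in WT, and that of LTI30 was 0.61 (SE 0.09) and 0.68 (SE 0.09) in the same order.

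EM6 (chr2:16779552-16780368, minus strand), an Em protein that in Arabidopsis is needed for the normal timing of drying in the seed, had 7732, 10285, 9691 and 7199 CPM in dog1-3 NaCl and 4601, 5519.7, 4267 and 3744 CPM in dog1-3 mock. WT seeds had 4048, 3207, 3773 and 3070.1 CPM on NaCl, against 1699.6, 1837, 1627 and 1414 CPM in mock. All NaCl libraries were higher than all mock libraries of their genotype, and the log2FC for salt was 0.94 (SE 0.11, adjusted p = 3.71e-08) in dog1-3 and 1.10 (SE 0.11, adjusted p = 9.18e-10) in WT. EM1, the other Em gene, changed less with salt, by a log2FC of 0.55 (SE 0.11) in dog1-3, under the fold limit, and 0.63 (SE 0.11) in WT. LEA18, of family LEA_1, had 3604, 3012, 3100.4 and 2899 CPM in dog1-3 NaCl, 1499, 1510.0, 1351 and 1529 CPM in dog1-3 mock, 2026, 1731, 2006 and 1784 CPM in WT NaCl and 737, 1052, 817 and 702 CPM in WT mock. Its salt response, a log2FC of 1.10 (SE 0.10) in dog1-3 and 1.19 (SE 0.10) in WT, was among the 3 largest in WT.

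The largest fold change belonged to a gene with few reads. ERD14, a dehydrin first described as induced early by dehydration, had 8.44, 13.4, 9.41 and 8.63 CPM in dog1-3 NaCl, against 0, 1.49, 1.15 and 1.05 CPM in dog1-3 mock, which stood for 8 reads in all. WT seeds had 3.89, 2.83, 7.40 and 9.50 CPM on NaCl and 0.745, 0.813, 2.46 and 1.45 CPM in mock. In each genotype NaCl and mock did not overlap, while the genotypes overlapped in both treatments, and the log2FC for salt was 3.27 (95% interval 2.32 to 4.22) in dog1-3 and 1.97 (95% interval 1.15 to 2.80) in WT. The mock levels were close to the 3 counts taken as the limit of detection, and the fitted values depend on the prior count.

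**Figure D2:**
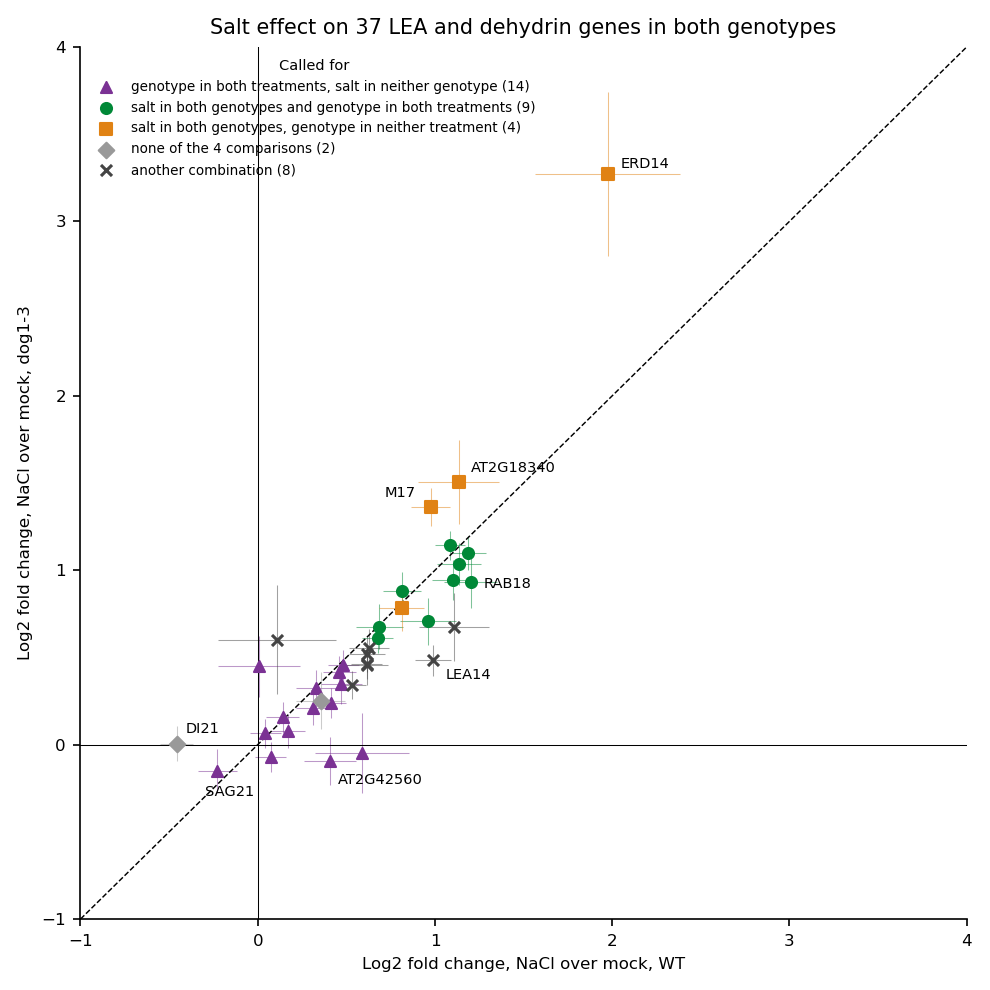
Log2FC for NaCl over mock in dog1-3 (vertical axis) and in WT (horizontal axis) for the 37 members tested, with bars of 1 SE, a dashed line of equal change, and colours for the comparisons in which a gene was called. The axes share no library. Most genes lie close to the dashed line, with ERD14 (3.27 in dog1-3 and 1.97 in WT) the farthest from the origin.

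The salt response of the members was not shown to differ between the genotypes. For the salt-by-genotype interaction 0 of 37 members passed the adjusted p by edgeR, where 0% of all genes did with a positive and 0.00788% with a negative sign, and 0 members passed by DESeq2. At an unadjusted p under 0.05 there were 4 members, where 6.51% of all genes tested had such a p. The median interaction of the members was -0.09 on the log2 scale. For 25 members the 95% interval of the interaction lay inside 1.5-fold either way, and for 12 it reached beyond, so that for those a difference of that size lay within the error.

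LEA14 (chr1:171525-172948, minus strand), a LEA_2 protein, had the smallest interaction p. It had 367, 385, 400.1 and 338 CPM in dog1-3 NaCl and 290.2, 297, 229 and 248 CPM in dog1-3 mock. Its WT libraries had 129, 143, 154 and 117 CPM on NaCl and 65.9, 68.9, 78.0 and 59.8 CPM in mock. The salt log2FC was 0.48 (SE 0.09) in dog1-3 and 0.99 (SE 0.10) in WT, an interaction of -0.51 (95% interval -0.78 to -0.23, adjusted p = 0.383). DI21, a drought-induced LEA_3 gene, had an interaction of 0.46 (SE 0.14, adjusted p = 0.451), with 112 ± 13.6 CPM in dog1-3 NaCl, 111 ± 10.8 CPM in dog1-3 mock, 105 ± 8.41 CPM in WT NaCl and 144 ± 13.4 CPM in WT mock (SD, n = 4). M17 had an interaction of 0.39 (SE 0.15, adjusted p = 0.664).

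The second comparison asked how the members differed between dog1-3 and WT. In mock, 29 of 37 were called higher in dog1-3 and 1 lower, where 9.94% of all genes tested were called higher and 8.44% lower. On NaCl, 27 were called higher and 1 lower, where 8.16% of all genes were called higher and 7.54% lower. The members' median log2FC was 1.01 in mock and 0.94 on NaCl. All 4 SMP genes tested and both Em genes were called higher in both treatments, as were 10 of 12 LEA_4 genes, whereas 6 of 7 dehydrins were called in mock and 5 on NaCl. In the SMP gene AT5G53270, 62 of 451 stretches of 50 nucleotides at the 3′ end were shared with AT5G53260. AT3G22490 (SMP), AT2G18340 (LEA_4) and AT2G23120 (PvLEA18) each overlap a gene on the opposite strand. Reads of these genes could therefore be shared. Libraries of dog1-3 and WT did not overlap for 29 members higher and 2 lower in mock, where 16.1% and 15.7% of all genes did so, and for 29 higher and 1 lower on NaCl, where 14% and 12.9% did.

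The largest genotype changes in mock were those of AT2G42560 (LEA_4) and LEA14 (LEA_2), and on NaCl those of RAB28 (SMP) and AT2G42560. AT2G42560, a LEA_4 gene, had 980.4, 916, 880.0 and 732 CPM in dog1-3 NaCl and 756, 1084, 1176 and 728 CPM in dog1-3 mock, against 306, 218, 309 and 305 CPM in WT NaCl and 187, 141, 247 and 281 CPM in WT mock. Every dog1-3 library exceeded every WT library, with a log2FC of 1.63 (SE 0.15, adjusted p = 1.51e-11) on NaCl and 2.13 (SE 0.15, adjusted p = 5.08e-15) in mock. LEA14, with the values above, had a log2FC of 1.46 (SE 0.09) on NaCl and 1.97 (SE 0.10) in mock. RAB28, an SMP protein, reached 31.9, 28.8, 29.9 and 27.4 CPM in dog1-3 NaCl and 17.6, 26.5, 17.2 and 24.1 CPM in dog1-3 mock. Its WT libraries had 8.74, 12.2, 10.2 and 5.50 CPM on NaCl and 8.94, 12.5, 7.88 and 7.50 CPM in mock. RAB28 thus lay higher in all dog1-3 libraries, with a log2FC of 1.69 (SE 0.21) on NaCl and 1.25 (SE 0.19) in mock.

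SAG21 was the single member called lower in dog1-3. This LEA_3 gene (chr4:1046042-1047105, minus strand), known from leaf senescence and oxidative stress, had 166, 107, 107 and 139 CPM in dog1-3 NaCl and 173, 129, 129 and 149.6 CPM in dog1-3 mock. WT libraries had 204, 239, 176 and 261 CPM on NaCl and 272, 294, 219.6 and 250.4 CPM in mock. The genotypes did not overlap in either treatment, and the log2FC was -0.76 (SE 0.12, adjusted p = 5.34e-06) on NaCl and -0.84 (SE 0.11, adjusted p = 1.8e-07) in mock. SAG21 overlaps AT4G04125 on the same strand, so that its reads could be shared with that gene.

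**Figure D3:**
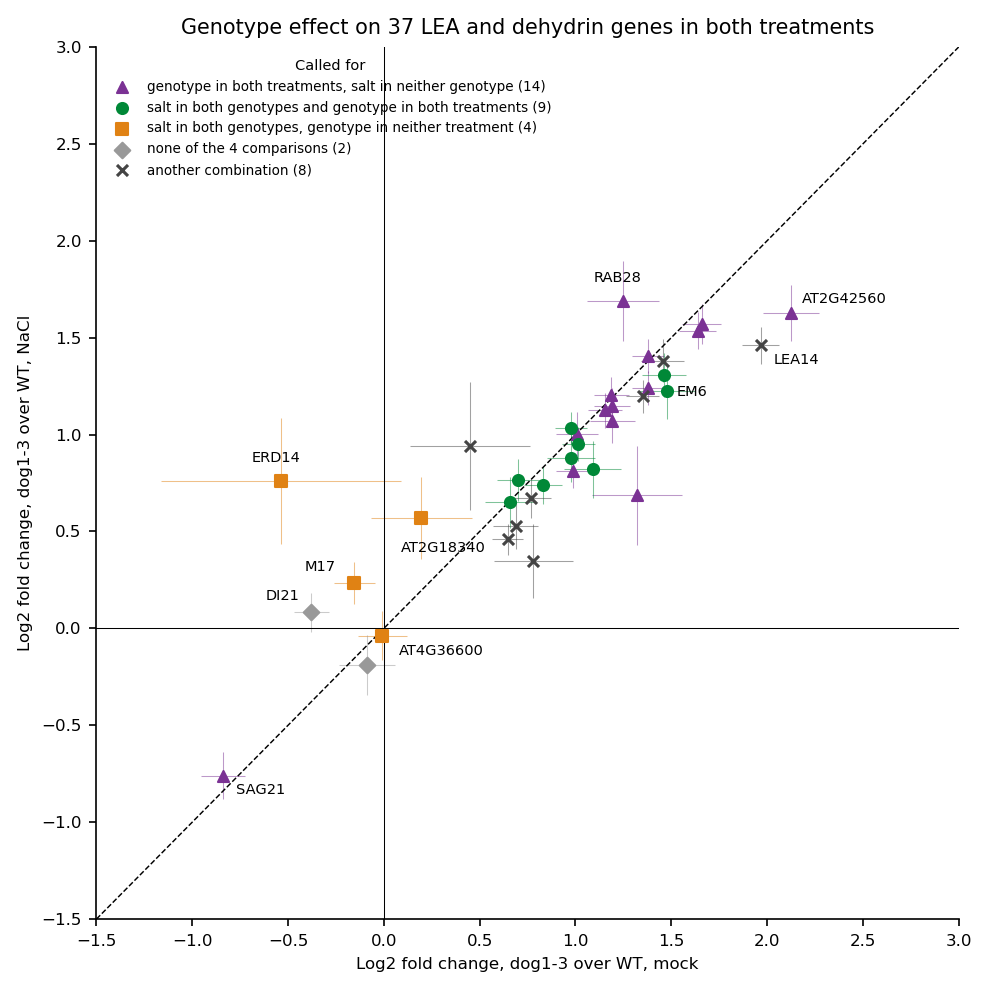
Log2FC for dog1-3 over WT on NaCl (vertical axis) and in mock (horizontal axis) for the 37 members tested, with bars of 1 SE, a dashed line of equal change, and colours for the comparisons in which a gene was called. The axes share no library. SAG21 is alone at the lower left (-0.76 on NaCl and -0.84 in mock), M17 and AT4G36600 lie near 0, and DI21 lies at 0.08 on NaCl and -0.38 in mock.

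Calls in the 4 comparisons, which share libraries, sorted the 37 members tested into sets that are used here as a description. In 14 genes genotype was called in both treatments and salt in neither genotype, and 8 of these were LEA_4 genes. In 9 genes both factors were called throughout, 4 of them dehydrins (RAB18, LTI30, XERO1 and AT4G39130) and the others EM6, LEA18, ECP31, M10 and AT3G02480. In 4 genes (M17, AT4G36600, AT2G18340 and ERD14) salt was called in both genotypes and genotype in neither treatment. A further 8 had other combinations, and LEA27 and DI21 were called in none. Of the 14, 5 passed the adjusted p for salt in both genotypes without the fold limit, so that for those 5 the size of the change, not the test, placed them in this set. Of the others, 3 passed in 1 genotype and 6 in neither. Among the genes called for salt and not for genotype, AT2G18340 and ERD14 were less firmly placed. With 1 library left out, their log2FC for genotype on NaCl was 0.45 to 0.76 and 0.52 to 1.11, in that order. Both ranges span the fold limit, so their place in this set could depend on 1 library.

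**Figure D4:**
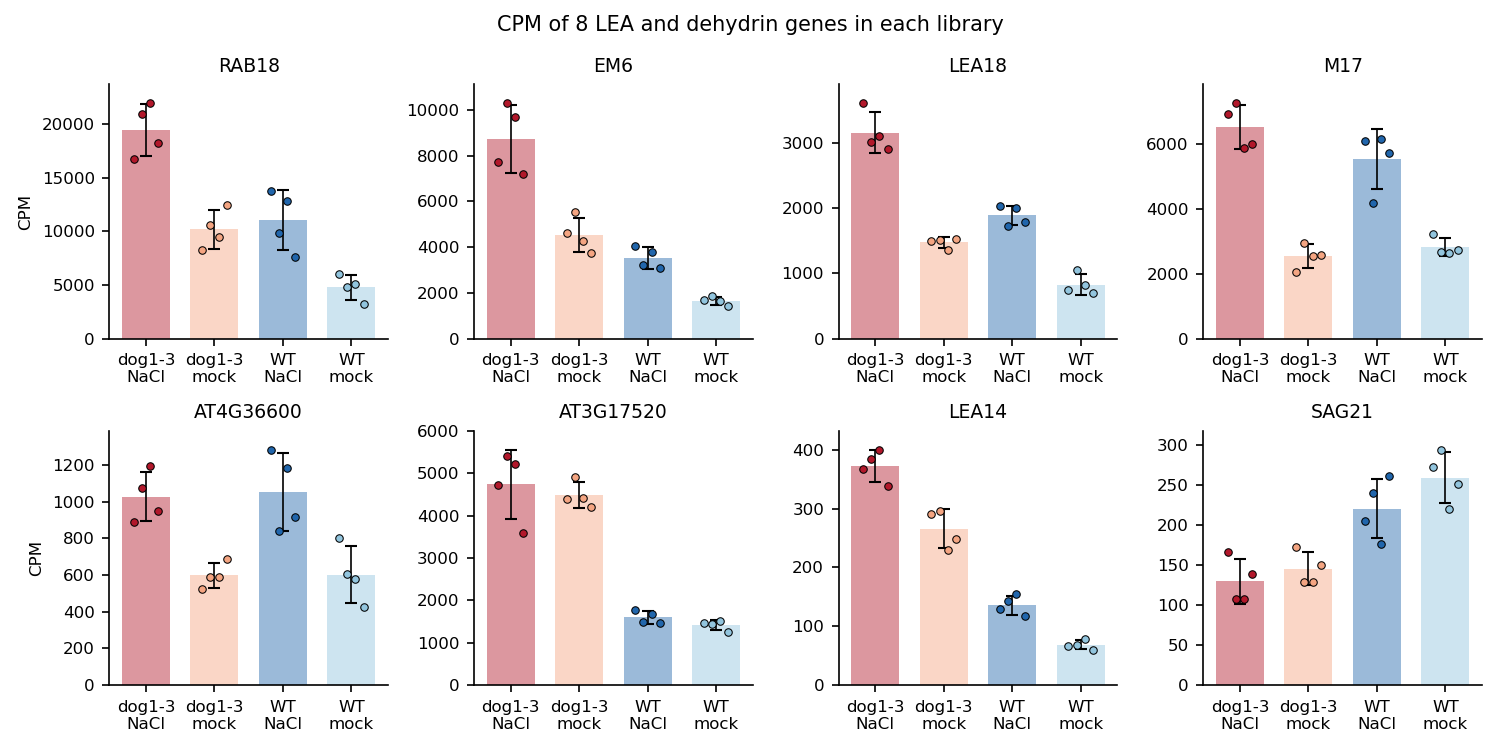
CPM (vertical axes, from 0) of 8 members in dog1-3 NaCl, dog1-3 mock, WT NaCl and WT mock, with points for libraries, bars for means and error bars for the SD (n = 4). RAB18, EM6 and LEA18 differ by salt and by genotype, M17 and AT4G36600 by salt, AT3G17520 and SAG21 by genotype, and LEA14 averages 373 CPM in dog1-3 NaCl and 68.1 CPM in WT mock.

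AT3G17520 (chr3:5999174-6000447, minus strand, 1 exon), the most abundant LEA_4 gene, shows the genotype set. It had 4728, 5417, 5227 and 3599.7 CPM in dog1-3 NaCl and 4389.7, 4923, 4430.5 and 4210.0 CPM in dog1-3 mock. The WT libraries had 1765, 1481, 1681 and 1460.1 CPM on NaCl and 1475, 1446, 1514 and 1249 CPM in mock. Salt left the libraries of each genotype overlapping, with a log2FC of 0.08 (SE 0.10, adjusted p = 0.592; -0.10 when scaled by library size alone) in dog1-3 and 0.17 (SE 0.10, adjusted p = 0.193) in WT, whereas dog1-3 over WT gave 1.57 (SE 0.10, adjusted p = 2.44e-15) on NaCl and 1.66 (SE 0.10, adjusted p = 2.54e-16) in mock. ECP63, a LEA_4 gene named after an embryonic cell protein of carrot, was similar, at 438 ± 28.1 CPM in dog1-3 NaCl, 419 ± 30.7 CPM in dog1-3 mock, 166 ± 15.9 CPM in WT NaCl and 161 ± 16.2 CPM in WT mock (SD, n = 4). LEA7 was at 2867 ± 318 CPM in dog1-3 NaCl, 2482 ± 155 CPM in dog1-3 mock, 989 ± 58.4 CPM in WT NaCl and 796 ± 129 CPM in WT mock (SD, n = 4), and its reads could be shared with AT1G52695 on the opposite strand. The other LEA_4 genes of this set (AT3G15670, AT2G42560, AT5G44310, AT1G72100 and AT4G21020) had log2FC of 0.99 to 2.13 for genotype in mock, and AT4G21020 had 0.07 (SE 0.09) for salt in WT and -0.07 (SE 0.09) in dog1-3. The set also held 1 dehydrin, AT2G21490, which differed from the other abundant dehydrins. It ranged from 2768 to 3365 CPM in dog1-3 NaCl, from 2165 to 2559.5 CPM in dog1-3 mock, from 1228 to 1547 CPM in WT NaCl and from 844 to 1144 CPM in WT mock, with a log2FC for salt of 0.42 (SE 0.09) in dog1-3 and 0.46 (SE 0.09) in WT, both under the fold limit.

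M17 and AT4G36600 show the salt set. M17 (chr2:17206452-17207698, plus strand) had 6940.0, 7272, 5885 and 6025 CPM in dog1-3 NaCl and 2058, 2968, 2551 and 2578 CPM in dog1-3 mock. WT seeds had 6116, 4203, 6180.1 and 5728 CPM on NaCl and 3237, 2684, 2639 and 2744 CPM in mock. The genotypes overlapped in both treatments, and dog1-3 over WT gave a log2FC of 0.23 (95% interval 0.01 to 0.45) on NaCl and -0.15 (95% interval -0.37 to 0.07) in mock. AT4G36600, a LEA_4 gene, had 888, 1075, 1191 and 951 CPM in dog1-3 NaCl, 526, 589, 587 and 686 CPM in dog1-3 mock, 1282, 837, 1185 and 914 CPM in WT NaCl and 803, 604, 575 and 424 CPM in WT mock. Its genotype log2FC was -0.04 (95% interval -0.29 to 0.22) on NaCl and -0.01 (95% interval -0.27 to 0.25) in mock, while salt gave 0.78 (SE 0.13) in dog1-3 and 0.81 (SE 0.13) in WT. M10, which lies near M17 on chromosome 2, was in contrast called for both factors, with 8168 ± 342 CPM in dog1-3 NaCl, 4429 ± 447 CPM in dog1-3 mock, 4799 ± 754 CPM in WT NaCl and 2728 ± 487 CPM in WT mock (SD, n = 4). In M17, 152 of the 451 stretches of 50 nucleotides searched at the 3′ end were repeated, all within the gene itself.

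Whether the genotype change and the salt change of a gene differ can be read from dog1-3 mock over WT NaCl. The change by genotype in mock minus the change by salt in WT equals that contrast, each taken with its sign. Of the 37 members, 15 were called higher in dog1-3 mock and 5 lower, where 9.44% of all genes tested were called higher and 10.3% lower. AT2G42560 had the highest log2FC, 1.72 (SE 0.15, adjusted p = 4.23e-12), followed by AT3G17520 with 1.49 (SE 0.10). The 5 genes called lower were ERD14 at -2.51 (SE 0.52, adjusted p = 0.000168), M17 at -1.13 (SE 0.11), AT2G18340 at -0.94 (SE 0.25), AT4G36600 at -0.82 (SE 0.13) and SAG21 at -0.61 (SE 0.12). RAB18, with a log2FC of -0.11 (95% interval -0.41 to 0.18), was not called. For SAG21 both changes were negative, and the larger was that by genotype (-0.84 in mock, against -0.23 for salt in WT). SAG21 fell under the fold limit in 4 of the fits that left out 1 library. The glmTreat test left 8 members higher and 2 lower, where 2.52% and 2.95% of all genes were.

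**Figure D5:**
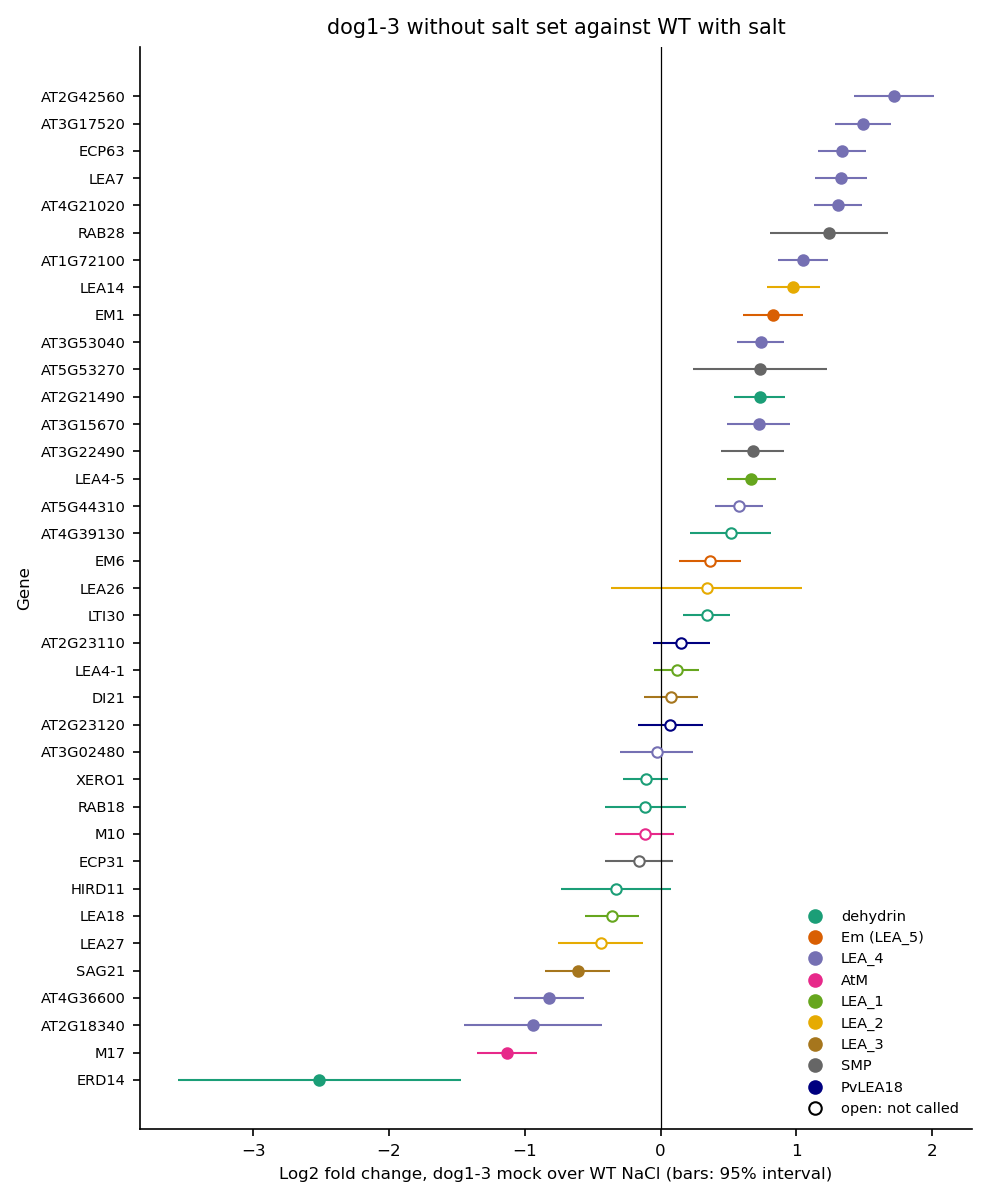
Log2FC of dog1-3 mock over WT NaCl (horizontal axis, bars of 95% intervals) for the 37 members tested, ordered by value and coloured by family, with open points for genes not called. LEA_4 genes fill the top of the plot, from AT2G42560 at 1.72 downwards, and M17 (-1.13) and ERD14 (-2.51) stand at the bottom. The LEA_4 genes AT2G18340 and AT4G36600 lie next above M17, so the family is found at both ends.

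Further members, mostly of the smaller families, differed in which of the comparisons called them. Among the SMP genes, ECP31 had 469.6, 546, 568 and 405 CPM in dog1-3 NaCl, 202, 254, 227 and 287 CPM in dog1-3 mock, 319, 257, 299 and 209.5 CPM in WT NaCl and 125, 153, 126 and 90.5 CPM in WT mock. Its log2FC for salt was 1.03 (SE 0.12) in dog1-3 and 1.13 (SE 0.12) in WT. LEA4-1, the most abundant LEA_1 gene, was at 2602 ± 103 CPM in dog1-3 NaCl, 2053 ± 114 CPM in dog1-3 mock, 1893 ± 131 CPM in WT NaCl and 1311 ± 107 CPM in WT mock (SD, n = 4). It passed both limits in dog1-3 over WT in mock, with a log2FC of 0.65 (SE 0.08), and not in the other 3 comparisons. AT2G23110, of the PvLEA18 family, was at 177 ± 24.6 CPM in dog1-3 NaCl, 124 ± 1.88 CPM in dog1-3 mock, 112 ± 11.0 CPM in WT NaCl and 73.1 ± 10.5 CPM in WT mock (SD, n = 4). Its salt change in WT, a log2FC of 0.62 (SE 0.10), fell under the fold limit without WT mock replicate 4 (0.52) or without WT NaCl replicate 1 (0.58), and was 0.50 when scaled by library size alone. HIRD11, a dehydrin with few reads, was at 34.7 ± 11.9 CPM in dog1-3 NaCl, 22.5 ± 3.02 CPM in dog1-3 mock, 28.7 ± 6.87 CPM in WT NaCl and 13.1 ± 3.83 CPM in WT mock (SD, n = 4), and was called for salt in both genotypes and for genotype in mock only. LEA27, a LEA_2 gene called in none of these comparisons, was at 38.3 ± 6.81 CPM in dog1-3 NaCl, 31.4 ± 2.50 CPM in dog1-3 mock, 42.7 ± 6.30 CPM in WT NaCl and 33.4 ± 8.73 CPM in WT mock (SD, n = 4).

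The 15 members that did not pass the filter included the LEA genes best known from cold-treated leaves. COR47, a cold-regulated dehydrin, had 20 counts over the 16 libraries and at most 3 in a library, and ERD10 had 4 counts. The chloroplast proteins COR15A and COR15B had 4 and 19 counts. For 6 members no read was counted in any library, which allows up to 3 counts in a library, or 0.726 to 2.35 CPM depending on its depth. AT5G53260, an SMP gene, was the exception, with reads in all 16 libraries, 66 counts in total and up to 9 in a library, and the other members under the filter had at most 20 counts in total. Differences between groups were not tested for these genes.

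Transcription factors known to act on LEA genes were examined as a list of 24, of which 16 were tested. In dog1-3 over WT 6 were called higher in mock and 5 on NaCl, where 9.94% and 8.16% of all genes tested were. For salt 2 were called higher in WT and 1 in dog1-3, where 9.46% and 7.53% of all genes were. The salt calls were thus about as frequent in this list as among all genes. In these comparisons 0 were called lower. HSFA9, a heat stress factor of the maturing embryo, was called in all 4 comparisons, at 42.1 ± 6.91 CPM in dog1-3 NaCl, 22.4 ± 5.29 CPM in dog1-3 mock, 16.9 ± 6.72 CPM in WT NaCl and 10.5 ± 2.07 CPM in WT mock (SD, n = 4). ABI5, the bZIP factor of ABA signalling that binds Em promoters, was at 386 ± 15.0 CPM in dog1-3 NaCl, 329.9 ± 18.7 CPM in dog1-3 mock, 259 ± 6.28 CPM in WT NaCl and 192 ± 17.4 CPM in WT mock (SD, n = 4), and its log2FC of dog1-3 over WT was 0.58 (SE 0.08), just under the fold limit, on NaCl and 0.78 (SE 0.08) in mock. EEL had the largest genotype log2FC of the list, 1.30 (SE 0.23) on NaCl and 1.33 (SE 0.21) in mock. ABI3 was not called for genotype, with 0.01 (SE 0.08) on NaCl and 0.35 (SE 0.08) in mock. Besides HSFA9, VAL2 was called for salt in WT, with a log2FC of 0.70 (SE 0.19). Of the CBF factors of the cold response, CBF1 and CBF3 had 0 counts in all libraries, and CBF2 had at most 2 counts in a library. Markers of the mature seed rose with genotype as most members did. All 5 were called higher in dog1-3 in both treatments and 0 of 5 for salt in either genotype, where 3 (in WT) and 4 (in dog1-3) passed the adjusted p under the fold limit. Their summed level was 69239 to 89945 CPM in dog1-3 NaCl, 56761 to 66344 CPM in dog1-3 mock, 36967 to 52397 CPM in WT NaCl and 25364 to 42412 CPM in WT mock. Longer lists held salt calls as well. Of 10 oleosin, caleosin and steroleosin genes tested, 6 were called higher on NaCl in WT and 3 in dog1-3. Of 8 cruciferin and vicilin genes tested, 3 were in WT and 1 in dog1-3. The median salt log2FC of these lists in WT was 0.64 and 0.44, against 0.61 for the members. For genotype, 10 and 9 of the first list and 7 and 6 of the second were called higher in mock and on NaCl. In these comparisons 0 were called lower. Of 3 markers of the micropylar endosperm, EPR1 was called higher in dog1-3 in mock, with a log2FC of 0.78 (SE 0.12), bZIP44 was called lower in dog1-3 in mock, with -1.39 (SE 0.18), and on NaCl, with -0.64 (SE 0.25), and lower on NaCl in WT, with -0.97 (SE 0.17), and MAN7 was called in none of the 4 comparisons. Their sum, nearly all of it EPR1, was 22874 to 29726 CPM in dog1-3 NaCl, 25883 to 34253 CPM in dog1-3 mock, 16684 to 24323 CPM in WT NaCl and 15108 to 21311 CPM in WT mock. The part of these differences in the members' changes was not tested.

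The 250 bases before the annotated start of each gene were read from the reference (RefSeq, TAIR10.1) because many LEA promoters carry the ABA-responsive element. Its core ACGTG, on either strand, occurred in 37 of 52 member promoters (71.2%), against 22.9% of 27438 protein-coding genes, where the palindrome CACGTG counts as a match on each strand. Among the 37 members tested 83.8% held it, and among the 15 not tested 40%. The cold- and drought-responsive core CCGAC occurred in 34.6% of member promoters and 12% of all, and the RY core CATGCA of seed-specific promoters in 17.3% and 8.43%. These shares describe letters, not binding sites. Some of the windows overlap another annotated gene, among them those of RAB18 (AT5G66410), LTI30 (AT3G50960) and LEA4-1 (AT1G32550). In the genotype set 13 of 14 promoters held ACGTG, in the set called for both factors 7 of 9, and in the salt set 3 of 4. The promoters of 5 genes are printed because they come from the 3 sets and range from no match to 7. EM6 (chr2:16780369-16780618, minus strand) and LEA18 (chr2:14863413-14863662, minus strand) were called for both factors, AT4G36600 (chr4:17263314-17263563, plus strand) and M17 (chr2:17206202-17206451, plus strand) for salt, and AT3G17520 (chr3:6000448-6000697, minus strand) for genotype. Capitals mark the ACGTG core, the CCGAC core or the CATGCA core, read on either strand.
EM6: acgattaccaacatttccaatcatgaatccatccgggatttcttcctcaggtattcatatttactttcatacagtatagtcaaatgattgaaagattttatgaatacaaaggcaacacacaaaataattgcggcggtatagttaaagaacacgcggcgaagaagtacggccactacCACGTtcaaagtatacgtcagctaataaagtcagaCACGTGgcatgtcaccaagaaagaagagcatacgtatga
LEA18: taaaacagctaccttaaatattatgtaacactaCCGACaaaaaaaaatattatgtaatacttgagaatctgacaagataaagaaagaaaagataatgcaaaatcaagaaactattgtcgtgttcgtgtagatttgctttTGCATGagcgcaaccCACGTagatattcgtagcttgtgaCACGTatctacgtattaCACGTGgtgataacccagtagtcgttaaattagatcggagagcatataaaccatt
AT4G36600: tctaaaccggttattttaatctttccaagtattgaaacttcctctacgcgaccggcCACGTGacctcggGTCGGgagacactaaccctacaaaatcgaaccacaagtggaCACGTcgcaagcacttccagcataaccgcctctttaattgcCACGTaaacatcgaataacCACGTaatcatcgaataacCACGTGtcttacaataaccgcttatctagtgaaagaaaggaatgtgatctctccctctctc
M17: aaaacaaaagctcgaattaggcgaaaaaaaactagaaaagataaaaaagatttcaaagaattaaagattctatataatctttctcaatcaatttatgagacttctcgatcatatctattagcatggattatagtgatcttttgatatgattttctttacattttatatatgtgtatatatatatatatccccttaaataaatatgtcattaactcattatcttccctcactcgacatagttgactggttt
AT3G17520: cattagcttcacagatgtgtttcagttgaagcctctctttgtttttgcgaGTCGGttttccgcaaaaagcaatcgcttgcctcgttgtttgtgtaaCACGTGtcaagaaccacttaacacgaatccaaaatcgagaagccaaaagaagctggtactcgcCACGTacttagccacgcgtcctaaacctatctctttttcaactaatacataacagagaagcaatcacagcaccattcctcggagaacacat
ACGTG was found 3 times in EM6, 4 times in LEA18, 7 times in AT4G36600 and 3 times in AT3G17520, and M17 held no match to these cores in this window.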

How the data were processed

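Whole seeds of dog1-3 and WT, on NaCl or mock, were measured by 3'RNA-seq in 16 libraries, 4 for each group. The authors deposited 1 table per library with unnormalised counts for 37336 loci. The submitters' processing notes name STAR 2.7.8a, DESeq2 and TAIR10, while the counting program, its strand setting and any use of molecular identifiers are not given in the sources used here. Groups came from the sample labels, and no library was a copy of another of its group (chi-square per degree of freedom of 1.51 to 6.16 between replicates). Libraries of different groups were not compared in this way.

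Counts were tested in edgeR 4.0.16 (R 4.3.3) by the quasi-likelihood F test with TMM scaling and 1 mean per group over all 16 libraries. Genes passed filterByExpr at a minimum count of 10, which kept 12697 genes. p-values were adjusted by Benjamini-Hochberg over all of them, and a change was called at an adjusted p under 0.05 and more than 1.5-fold. The SE is the log2FC divided by the square root of F. Intervals for changes are 95% intervals of that fit. The smallest count taken as detected was 3, and this limit covers counting error only. Tests across all genes were checked on simulated counts.

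Members, families, transcription factors and markers were chosen with earlier results of these data known. Genes given with full statistics were the most abundant tested member of each family, the 3 largest called changes with libraries apart in each comparison, the 3 smallest interaction p-values and any member called against the main direction. Others were described after their values were seen. Alternatives were DESeq2 1.42.0, other scalings, no filter, only the groups compared, a replicate block, another rule for calls and leaving out each library. Promoters, coordinates and overlaps were read from the RefSeq reference TAIR10.1. Protein sequences were not used here.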

Additional observations from a re-analysis of the deposited data

Results flagged for a closer look

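In 72 groups of 4 libraries (17 genes and the summed CPM), 2 held a library far from the other 3, where chance gives about 1 in 20. AT2G42560 was at 218 CPM in WT NaCl replicate 2, against 305 to 309 CPM in the other WT NaCl libraries, a gap of 0.954 of the range. LEA18 was at 1351 CPM in dog1-3 mock replicate 3, against 1499 to 1529 CPM in the other dog1-3 mock libraries, a gap of 0.833 of the range.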

How the results depend on the processing

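For the members called, DESeq2, RLE scaling, library size scaling, no filter and a fit of only the groups compared stayed within 1.5 times of the counts given. The glmTreat test left 9 (salt in WT), 8 (salt in dog1-3) and 10 (dog1-3 mock over WT NaCl), and the adjusted p alone gave 29 and 26 for salt in WT and dog1-3. Leaving out 1 library gave 16 to 20 (salt in WT), 13 to 16 (salt in dog1-3), 29 to 30 (genotype in mock), 26 to 28 (genotype on NaCl), 18 to 22 (dog1-3 mock over WT NaCl) and 0 to 0 (interaction). Summed CPM without 1 library were 82631 to 86563 in dog1-3 NaCl, 52560 to 55098 in dog1-3 mock, 42943 to 47407 in WT NaCl and 25572 to 27836 in WT mock. Library size scaling gave 73583 CPM in dog1-3 NaCl. Some changes not called in the full fit were beyond the fold limit with 1 library left out. For genotype on NaCl these were AT2G18340 (0.76 without WT NaCl replicate 1) and ERD14 (1.11 without WT NaCl replicate 4). For salt in dog1-3 they were RAB28 (0.59 without dog1-3 mock replicate 2) and AT2G23110 (0.60 without dog1-3 NaCl replicate 4).

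Library size scaling also shifted the log2FC median over all genes tested to -0.12 and -0.19 (salt in WT and dog1-3), -0.18 and -0.25 (genotype in mock and on NaCl) and -0.05 (dog1-3 mock over WT NaCl). The share of upward calls among all calls was then 35.0%, 21.7%, 29.6%, 19.7% and 39.2%, against 57.2%, 51.3%, 54.1%, 51.98% and 47.9% under TMM, in the same order. M10 (0.53 and 0.54), LEA18 (0.51), LEA4-1 (0.48) and AT2G23110 (0.50 and 0.44) were under the fold limit there in a comparison where TMM called them, and the cause was not tested.

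Reversed signs were of values near 0 that were not called. RAB28 for salt in WT was -0.0012 with DESeq2, -0.11 with library size scaling, -0.018 with no filter and -0.00010 with the replicate block. DI21 for salt in dog1-3 was -0.17 with library size scaling, -0.0045 with no filter and -0.0058 with only the groups compared, and for genotype on NaCl -0.15 with library size scaling. AT3G17520 for salt in dog1-3 was -0.10 with library size scaling. AT4G36600 for genotype in mock was 0.017 with the replicate block. Leaving out 1 library spanned 0 for RAB28 (-0.18 to 0.20), AT2G42560 (salt in dog1-3, -0.19 to 0.034), DI21 (salt in dog1-3, -0.046 to 0.088), AT2G18340 (genotype in mock, -0.043 to 0.40), AT4G36600 (genotype in mock, -0.14 to 0.17, and on NaCl, -0.13 to 0.069) and RAB18 (dog1-3 mock over WT NaCl, -0.25 to 0.0095).

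Same-numbered libraries correlated at -0.06 to 0.09, with 0 of 20 pairs over 0.1 and 7 best with their own number. For salt these were replicates 2, 3 and 4 in WT and 1 and 2 in dog1-3. For genotype they were replicate 2 in mock and 4 on NaCl. Correlations this low cannot exclude that the numbers pair the samples. The replicate block left 19, 14, 30, 28, 20 and 0 members called, the counts without it. Depth limits the 15 members under the filter and ERD14.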
